A study of Homo sapiens with 2 samples.

Results

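The genes described here are 10 classical interferon-induced antiviral effectors: IFIT1, IFIT2, IFIT3, MX1, MX2, OAS1, OAS2, OAS3, OASL and RSAD2. They were taken by symbol from the feature lists, which name 36601 genes, and each of the 10 symbols was found once. They were followed in colon organoids differentiated from 1383D6, a cell line of human induced pluripotent stem cells, by 3' single-cell RNA sequencing. The series is titled as a model of ulcerative colitis, a chronic inflammation of the colon. One culture received 3 cytokines (IFN-γ, IL-1β and TNF-α) for 8 days and is called 3CK, and the other received none of them and is called CNT. Both cultures went through the same differentiation, in which the growth protocol names activin A, FGF2, EGF, forskolin, PD98059 and the DNA methylation inhibitor 5-Aza-2'-Deoxycytidine. That text ends while naming a further agent. Every cell comes from 1 cell line, and each group is 1 library, so no difference between CNT and 3CK has a replicate check and no test was made. Every interval is a 95% interval that covers counting error only.

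Interferons bind receptors that activate the kinases JAK1, JAK2 and TYK2 and, through them, transcription factors. Type I and type III interferons chiefly act on genes with an interferon-stimulated response element, through a complex that holds STAT2 and IRF9. IFN-γ chiefly acts on genes with a gamma-activated sequence, and it also raises IRF1, which can bind response elements of the first kind. Several IFIT genes, OASL and RSAD2 are known to be switched on as well by IRF3 directly, without interferon, when a cell senses viral nucleic acid. In the intestine, epithelial cells are known for their response to type III interferon.

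The genes lie in 4 places of the genome, given here in GRCh38 with GENCODE 44 gene bounds. IFIT2 (ENSG00000119922, chr10:89283694-89309271), IFIT3 (ENSG00000119917, chr10:89327307-89377473) and IFIT1 (ENSG00000185745, chr10:89392546-89406487) are neighbours on the plus strand, with 18035 and 15072 bases between them. OAS1 (ENSG00000089127, chr12:112905856-112933219), OAS3 (ENSG00000111331, chr12:112938051-112976460) and OAS2 (ENSG00000111335, chr12:112978395-113011723) form a second cluster on the plus strand, with gaps of 4831 and 1934 bases. OASL (ENSG00000135114, chr12:121017763-121039246) lies on the minus strand of the same chromosome, 8006039 bases further on. MX2 (ENSG00000183486, chr21:41361999-41409393) and MX1 (ENSG00000157601, chr21:41420020-41470071) are 10626 bases apart, and RSAD2 (ENSG00000134321, chr2:6865557-6898239) overlaps CMPK2 head to head. IFIT2 shares exons with AL353751.1 on the same strand, and exons of IFIT2, IFIT3, MX1, OAS1 and RSAD2 overlap genes on the other strand. How reads in such stretches were assigned to genes is not stated in the labels. The IFIT2 count is uncertain to that extent through the overlap on the same strand. Overlaps with genes on the other strand matter only if reads were counted without regard to strand.

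Promoters were read because the 10 genes moved together. The RefSeq promoter table (GRCh38.p14) held 10 start sites for 6 of the genes: IFIT1, IFIT3, OAS1, OAS3, MX1 and RSAD2. IFIT2, MX2, OAS2 and OASL had no entry. The 250 bases before each start were searched on both strands for the response-element cores GAAANNGAAA and GAAANGAAA, which can overlap each other, and for the gamma-activated sequence TTCNNNGAA. All 10 windows held at least 1 of the first pair of motifs, which 5.48% of all 35116 promoter windows of that length held. The gamma-activated sequence was found in 2 of the 10 windows (1 of OAS1 and 1 of MX1), against 6.57% of all windows. Each stretch runs 5′ to 3′ on the plus strand, which is the coding strand of these genes, with the GAAANNGAAA and GAAANGAAA matches in capitals. TTTC at both ends of a match means that the motif lies on the minus strand. The stretches are chr10:89392487-89392545 for IFIT1, chr10:89327821-89327904 and chr10:89332471-89332500 for 2 IFIT3 starts, chr12:112906932-112906961 for OAS1, chr12:112938318-112938347 for OAS3, chr21:41426115-41426144 for MX1 and chr2:6877622-6877651 for RSAD2. Stretches that touch an annotated exon of any transcript were kept to 30 bases.
IFIT1: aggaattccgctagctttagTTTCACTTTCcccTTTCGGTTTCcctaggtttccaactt
IFIT3, upstream start: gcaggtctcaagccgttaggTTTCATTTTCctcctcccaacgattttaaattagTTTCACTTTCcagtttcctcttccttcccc
IFIT3, downstream start: ccatcagTTTCACTTTCCTTTCccctttca
OAS1: cctcccttctgagGAAACGAAAccaacagc
OAS3: gctagaaaGAAACGAAACTGAAAgcaggga
MX1: caggagctaggTTTCGTTTCtgcgcccgga
RSAD2: ctgtttcaacTTTCAGTTTCacatgtggaa
A match describes these letters and shows neither binding nor a cause. Each of these 6 genes thus carried such a core near a start. Within the stretches printed, IFIT1, IFIT3 and OAS3 had closely spaced or overlapping copies. Not every window is printed. Another RSAD2 window (chr2:6865635-6865884) held 4 GAAANGAAA matches, and further MX1 windows are left out as well. The whole window of the MX1 start printed held 2 GAAANGAAA matches.

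After filtering, 2487 CNT barcodes with 101831571 unique molecular identifiers (UMIs, 1 per captured transcript molecule) and 1398 3CK barcodes with 91860414 UMIs were kept. No barcode sequence was shared. The median barcode held 28911 UMIs in CNT and 62746 in 3CK, and 3 UMIs correspond to 0.0295 and 0.0327 CPM (UMIs scaled to the library total in the usual way). Barcodes with at least 2 EPCAM UMIs per 10000 are called epithelial: 1660 in CNT and 1016 in 3CK. Those with at least 5 UMIs per 10000 of COL1A1, COL1A2 and COL3A1 and under 1 of EPCAM are called mesenchymal, and numbered 574 and 124. Markers outside these rules fit the names in part. CDH1 stood at 138 and 251 CPM in the epithelial class against 14.9 and 7.57 CPM in the mesenchymal class, and DCN at 51.2 and 9.57 against 1210 and 1208 CPM, CNT first. The keratins KRT8 and KRT18 were high in both classes. Liver-type transcripts were abundant in the epithelial class, with TTR at 64857 and 19491 CPM, so the class is epithelial without being only colonic. Among leukocyte markers, these were under 1 CPM in both libraries: PTPRC (0.314 and 0.446), CD3E (0.609 and 0.261), MS4A1 (0.0687 and 0.0653) and ITGAM (0.137 and 0.348). Above it were CD68 (29.1 and 55.1 CPM), LYZ (5.80 and 8.23), CD14 (4.07 and 2.59) and CSF1R (3.27 and 1.23). In the mesenchymal class PTPRC was at 0.560 and 3.62 CPM and CD68 at 26.7 and 91.4 CPM, and the part of such cells in the results was not tested. Of 4 plasmacytoid dendritic markers, LILRA4 had 0 UMIs in both libraries, GZMB 3 and 1, CLEC4C 5 and 6, and IL3RA 53 and 145.

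All 10 antiviral genes were higher in 3CK than in CNT, by 10.5-fold at the least (MX2) and 229-fold at the most (OASL) in sums over all barcodes. Weighting every cell equally put the log2 ratio of OASL at 5.46 instead of 7.84, and OAS2, at 6.83, was then the largest. All were at least 8-fold higher, and the median log2 ratio over the 10 was 5.19. Over the 17523 genes that reached 1 CPM in CNT or 3CK the median was -0.05, with 6.96% at least 2-fold higher and 1.5% at least 8-fold higher. Ranked by ratio among those genes, OASL was 15th, OAS2 27th and MX2, the lowest of the 10, 195th.

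The IFIT proteins bind viral RNA with abnormal ends and hold it back from translation. IFIT3, which stabilises IFIT1 in a complex, was the most abundant of the 10 in both libraries, at 14.4 CPM without cytokines and 634 CPM with them. Its log2 ratio was 5.46 (5.38 to 5.53). IFIT1, which recognises RNA caps that lack ribose methylation, went from 12.0 to 179 CPM (log2 ratio 3.90, 3.81 to 3.98). IFIT2, which is linked to RNA binding and to cell death, was scarcer than IFIT1 in CNT and level with it in 3CK. IFIT2 stood at 2.91 and 180 CPM, so that its log2 ratio of 5.95 (5.79 to 6.12) was well above that of IFIT1. The intervals of IFIT1 and IFIT2 overlapped in 3CK (176 to 181 and 177 to 183 CPM).

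The OAS enzymes make a short adenylate messenger on double-stranded RNA that sets off the decay of RNA in infected cells. OAS3, the longest form, went from 5.38 to 163 CPM (log2 ratio 4.92, 4.79 to 5.04). OAS1, the shortest, went from 5.72 to 146 CPM (4.67, 4.55 to 4.80). The OAS1 and OAS3 intervals overlapped in CNT and not in 3CK. OAS2 was much rarer in CNT, at 79 UMIs or 0.776 CPM, and reached 66.2 CPM in 3CK, a log2 ratio of 6.42 (6.10 to 6.75). OASL, which lacks synthetase activity and enhances RNA sensing by RIG-I, had 17 UMIs in CNT and 3507 in 3CK. That is 0.167 CPM (0.0973 to 0.267) against 38.2 CPM, a log2 ratio of 7.84 (7.16 to 8.62).

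MX1 and MX2 are dynamin-like GTPases that block viral nucleocapsids, MX1 in the cytoplasm and MX2 at the nuclear pore. MX1 went from 11.7 to 208 CPM (log2 ratio 4.15, 4.07 to 4.24). MX2 went from 3.66 to 38.6 CPM (3.40, 3.24 to 3.56), and its 3CK interval overlapped that of OASL. RSAD2 (viperin) makes a chain-terminating nucleotide from CTP, and went from 149 UMIs (1.46 CPM) to 7828 UMIs (85.2 CPM), a log2 ratio of 5.86 (5.63 to 6.11). These counts are of transcript ends, so no division by length was applied when levels are set beside each other. In order of 3CK level the genes ran IFIT3, MX1, IFIT2, IFIT1, OAS3, OAS1, RSAD2, OAS2, MX2 and OASL. In CNT the order began with IFIT3, IFIT1 and MX1 and ended with RSAD2, OAS2 and OASL.

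**Figure D1:**
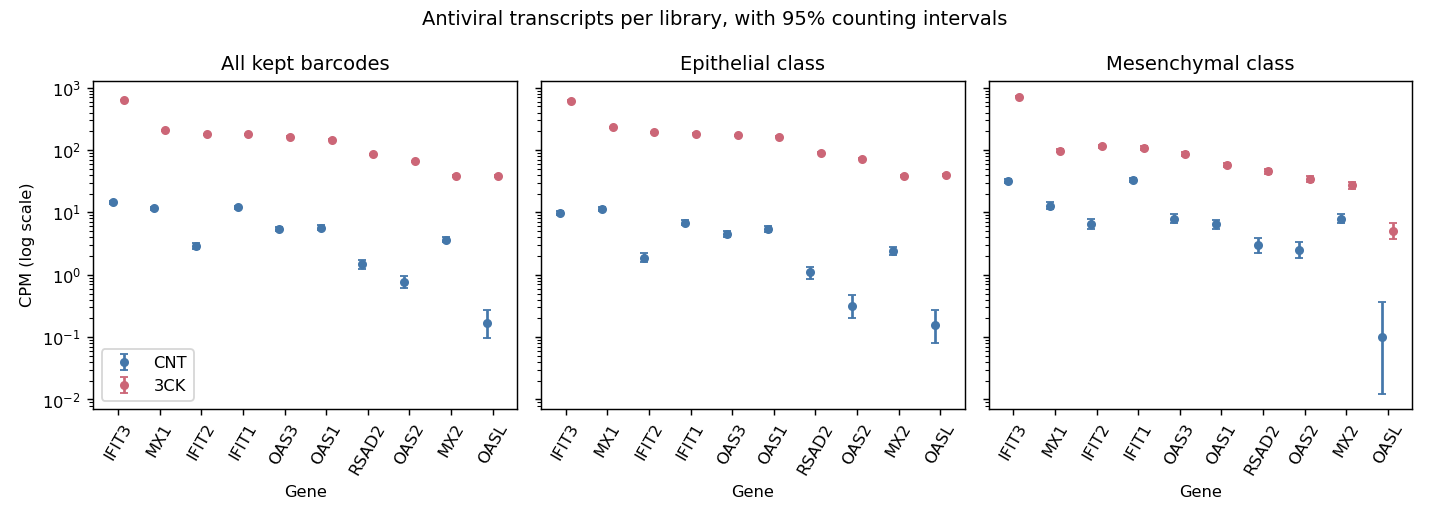
CPM (log axis) of the 10 genes in CNT (blue) and 3CK (red), in all kept barcodes, the epithelial class and the mesenchymal class. Points are sums over the barcodes of 1 library and bars are 95% exact Poisson intervals. Every red point lies above its blue point, from 0.167 against 38.2 CPM for OASL to 14.4 against 634 CPM for IFIT3 in all barcodes.

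In the epithelial class all 10 genes were at least 8-fold higher in 3CK, with a median log2 ratio of 5.61. The background there was 8.48% of 16809 genes at least 2-fold higher and 1.82% at least 8-fold higher, with a median of 0.01. IFIT3 stood at 9.91 and 622 CPM. OAS2 UMIs numbered 24 in CNT and 5100 in 3CK (0.315 and 72.7 CPM), and OASL had 12 and 2840 UMIs, or 0.158 against 40.5 CPM. These gave the highest log2 ratios, 7.85 (7.28 to 8.49) for OAS2 and 8.01 (7.20 to 8.96) for OASL. With every cell weighted equally OASL was at 4.94, below OAS2 (7.75), IFIT2 (6.53), OAS3 (5.47), IFIT3 (5.45) and RSAD2 (5.24). MX2, at 2.42 and 38.6 CPM, had the lowest at 4.00 (3.78 to 4.22).

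The mesenchymal class showed the same direction with smaller ratios. All 10 genes were at least 2-fold higher in 3CK there, with a median log2 ratio of 3.60, against 6.05% of 17353 genes and a median of -0.21. At least 8-fold higher were 7 of the 10, against 1.27% of the genes. IFIT1 went from 32.7 to 108 CPM (log2 ratio 1.73, 1.58 to 1.87) and MX2 from 7.94 to 27.2 CPM (1.78, 1.48 to 2.08). IFIT3 went from 32.3 to 720 CPM (4.48, 4.36 to 4.60). OASL rested on 2 UMIs in CNT and 46 in 3CK.

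The smaller mesenchymal ratios went with higher CNT levels for part of the genes and with lower 3CK levels for all but IFIT3. For most genes the order of the classes turned between the libraries. In CNT, 6 of the 10 genes were at least 2-fold lower in epithelial than in mesenchymal barcodes and none was 2-fold higher, with a median log2 ratio of -1.57. Among 18033 genes, 26.1% were at least 2-fold lower and 15.1% at least 2-fold higher in that comparison. IFIT1 stood at 6.88 CPM in the epithelial class against 32.7 CPM in the mesenchymal class, and OAS2 at 0.315 against 2.49 CPM. MX1 (11.4 and 12.8 CPM), OAS1 (5.42 and 6.41 CPM) and OASL (0.158 and 0.102 CPM) had intervals of the log2 ratio that included 0. In 3CK, 5 of the 10 were at least 2-fold higher in the epithelial class and none was 2-fold lower, with a median of 1.00. Among 17177 genes, 16.8% were at least 2-fold higher and 19% at least 2-fold lower. OAS1 stood at 163 CPM in the epithelial class against 57.7 CPM in the mesenchymal class, MX1 at 233 against 98.1 CPM and OASL at 40.5 against 5.05 CPM. IFIT3 was the 1 gene whose interval lay below 0 in 3CK, at 622 against 720 CPM.

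Free RNA from lysed cells adds some UMIs of each gene to every barcode. TTR, an epithelial-class transcript, was in mesenchymal barcodes at 1.22% of its epithelial level in 3CK and 2.17% in CNT. The mesenchymal level of the antiviral genes was between 35.3% (OAS1) and 116% (IFIT3) of the epithelial level in 3CK, apart from OASL at 12.5%. These shares are above that of TTR for all 10 genes, but TTR is a single transcript. In 3CK, mesenchymal against epithelial CPM was 7.57 against 251 for CDH1, 24.9 against 593 for CLDN7 and 1.32 against 29.3 for VIL1. It was 622 against 2054 for KRT19 and 35.7 against 83.3 for CDX2. The part of free RNA in the mesenchymal values was not tested. COL3A1 was lower in the mesenchymal class of 3CK than of CNT, at 1391 against 3316 CPM. That class, whose rule uses collagens, held 23.1% of kept barcodes in CNT and 8.87% in 3CK. Barcodes in no class made up 9.97% and 18.3%. In 3CK these had IFIT1 at 202 CPM, MX2 at 47.1 CPM and OASL at 49.1 CPM, above both named classes. Their other genes lay between the classes. Whether the mesenchymal class holds the same mixture of cells in both libraries, and what part this has in the turned order, was not tested.

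**Figure D2:**
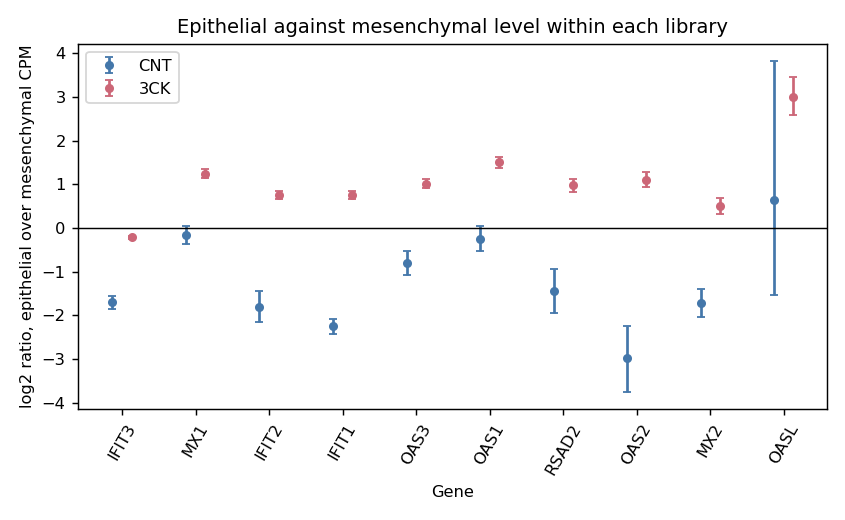
log2 ratio of epithelial to mesenchymal CPM for each gene within CNT (blue) and within 3CK (red), with 95% counting intervals and a line at 0. The CNT points lie below 0 for all genes but OASL, whose interval runs from -1.54 to 3.83, and the 3CK points lie above 0 for all but IFIT3.

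Another rule, at least 2 UMIs per 10000 of CHGA, CHGB, MLN and GHRL, picked hormone and granin transcripts of enteroendocrine cells in 37 CNT and 9 3CK barcodes. Their median depth was 1825 and 4563 UMIs, far under that of their libraries, and they are therefore called by their rule and given no cell type name. Of these, 26 and 7 also passed the epithelial rule. IFIT3 UMIs numbered 2 and 56, CNT first, which is 2.95 CPM (0.358 to 10.7) and 230 CPM (174 to 299). MX1 had 5 and 18 UMIs, OAS1 3 and 19, and OAS3 6 and 16. IFIT2 had 0 UMIs in CNT and 14 in 3CK, at least 13-fold higher with CNT set at 3 UMIs, and OAS2 0 and 4, at least 3.71-fold higher. OASL had 0 and 2 UMIs and gets no ratio. All 9 genes with a ratio were at least 2-fold higher, which 23% of 12941 genes were in these small sums. Within 3CK, the 7 epithelial barcodes of this rule held 51 IFIT3 UMIs, or 235 CPM, against 624 CPM in the other 1009. They held 5 IFIT1 UMIs (23.0 against 184 CPM), and for 8 of the 10 genes the interval lay below 0, while that of MX2 included it and OASL had 0 UMIs. The share of all genes with such an interval was not computed, so this count has no background to be read against.

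Detection per cell was compared after each barcode was thinned to 5000 UMIs, which left out 943 shallower barcodes in CNT and 335 in 3CK. Of the thinned CNT cells, 15.8% (14.0 to 17.7) held at least 1 UMI of the 10 genes, against 95.1% of those of 3CK (93.6 to 96.3). Unthinned, at the median depths given above, it was 40.1% and 96.6%. In the epithelial class the thinned shares were 12.9% and 95.6%, and in the mesenchymal class 25.3% and 91.6%. The class with the higher CNT share was thus the mesenchymal one, as it was for CPM.

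By gene, IFIT3 was detected in 3.86% of CNT and 83.9% of 3CK epithelial cells. MX1 was found in 3.86% and 50.6%, OAS3 in 1.98% and 51.4%, OAS1 in 1.41% and 45.7%, and IFIT1 in 2.92% and 39.9%. RSAD2 was found in 0.659% and 25.1%. OAS2 and OASL had no UMI in the 1062 thinned CNT epithelial cells, which allows a share of up to 0.282% at that depth, and were found in 27.7% and 11.6% of the 776 3CK cells. Unthinned, they were found in 17 (1.02%) and 7 (0.422%) of 1660 CNT epithelial barcodes. No class that should lack these genes was available as a floor. The IFIT3 share was nearly equal in epithelial and mesenchymal 3CK cells (83.9% and 84.1%), whereas that of OASL was 11.6% (9.43 to 14.1) and 2.80% (0.582 to 7.98).

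**Figure D3:**
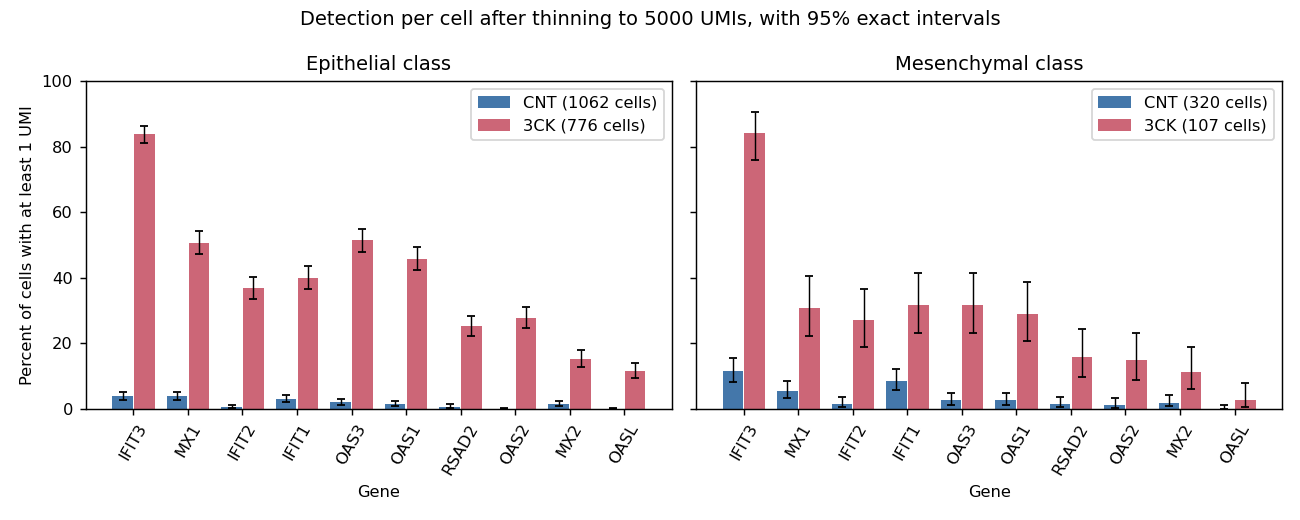
Percent of cells with at least 1 UMI of each gene after thinning to 5000 UMIs, in the epithelial and mesenchymal classes, with 95% exact binomial intervals. CNT bars (blue) stay at or under 11.6%, the IFIT3 share of mesenchymal cells, and the highest 3CK bars (red) are IFIT3 at 83.9% and 84.1%.

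The UMIs of the 10 genes were then summed per cell. At 5000 UMIs the mean sum was 0.280 per cell in CNT and 8.18 in 3CK. In CNT the highest 10% of cells held 79.4% of these UMIs, against 30.3% in 3CK. This share depends on the mean, and most CNT cells had no such UMI. The contrast therefore does not compare the spread over cells between the libraries. Unthinned barcodes with at least 10000 UMIs were then used, scaled per 10000 UMIs. Epithelial barcodes of CNT ran from 0 to 21.4 with a median of 0.124, and 429 of 1013 were at 0. Those of 3CK ran from 0.161 to 112 with a median of 14.2, and 238 of 730 had all 10 genes detected. In the mesenchymal class the medians were 0.410 in CNT, with 64 of 311 at 0, and 10.5 in 3CK. In the epithelial class the 95th percentile of CNT (1.54) lay under the 5th percentile of 3CK (2.41), whereas in the mesenchymal class these tails overlapped (4.25 and 2.67).

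**Figure D4:**
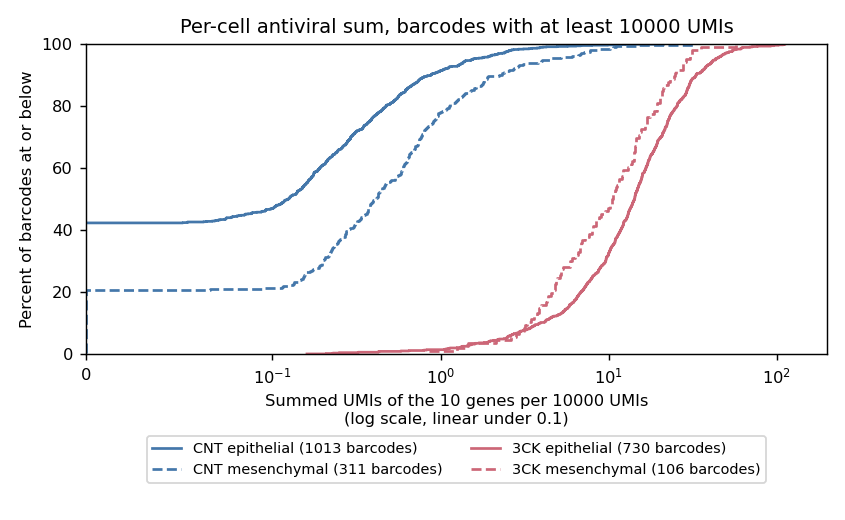
Cumulative percent of barcodes (at least 10000 UMIs) against the summed UMIs of the 10 genes per 10000 UMIs (log axis, linear under 0.1), for both libraries and both classes. The CNT curves start at 42.3% (epithelial) and 20.6% (mesenchymal) of barcodes with no UMI, and the medians are 0.124 and 0.410 in CNT and 14.2 and 10.5 in 3CK.

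A few CNT barcodes reached 3CK levels. In the epithelial class 11 of 1013 (1.09%, 0.543 to 1.93) were at or above the 10th percentile of 3CK, 3.92 per 10000, and they held 28.3% of the UMIs of the 10 genes in that group. In the mesenchymal class 19 of 311 (6.11%, 3.72 to 9.38) passed their 10th percentile, with 49.0% of the UMIs. Chosen by the sum of the 10 genes, the 11 epithelial barcodes had IFIT1 at 208 CPM, MX1 at 190 CPM and ISG15 at 3235 CPM. They held 0 UMIs of CXCL10 and 0 of IDO1. In the other 1002 CNT epithelial barcodes CXCL10 and IDO1 stood at 0.324 and 0.135 CPM, so both were scarce there too. In all 3CK epithelial barcodes of that depth CXCL10 and IDO1 stood at 1794 and 552 CPM. GBP1 and ICAM1 were higher in the 11 barcodes than in the other 1002, at 6.95 against 2.77 CPM and 37.7 against 16.1 CPM. In the 3CK barcodes GBP1 and ICAM1 stood at 407 and 802 CPM. The 11 barcodes held 1 UMI of GBP5 and 0 of CXCL9. The 19 mesenchymal barcodes held 15 CXCL10 UMIs (12.3 CPM), against 5 (0.277 CPM) in the other 292, and 1 IDO1 UMI. Between the same groups GBP1 stood at 54.8 against 28.8 CPM, GBP5 at 8.99 against 2.05 CPM and ICAM1 at 9.81 against 15.1 CPM. CXCL9 had 0 UMIs in the 19. The highest CNT epithelial barcode held 77 UMIs of IFIT1, 69 of IFIT2 and 101 of IFIT3, beside 1 of MX1, 0 of OAS1 and 0 of CXCL10. Without the 11 barcodes, IFIT1 stood at 3.79 CPM and IFIT2 at 0.676 CPM in the other CNT epithelial barcodes. Part of the UMIs of the 10 genes in CNT was thus held by few barcodes, and the chosen cut-offs come from the 3CK values.

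Across the 730 deep epithelial barcodes of 3CK, the log-scaled levels of the 10 genes were positively correlated in all 45 pairs, with a median Pearson r of 0.44. This describes cells of 1 library that share its depth, and has no p. Pairs of other genes were not computed, so the count of positive pairs has no background to be read against. IFIT1 and IFIT2 were the closest pair (0.70), and MX1 and OASL the least alike (0.12). The OAS1, OAS2 and OAS3 pairs lay between 0.56 and 0.58, while MX1 did not pass 0.41 with any other gene. The median over pairs was 0.37 in 3CK mesenchymal barcodes and, with sparse counts, 0.17 in CNT epithelial and 0.34 in CNT mesenchymal barcodes. The sum of the 10 genes had an r of 0.16 with the total UMIs of the barcode and -0.08 with its mitochondrial percent.

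Among the other 8985 genes with at least 10 CPM in 3CK epithelial barcodes, the 10 whose log-scaled level was most like the sum were CMPK2 (r of 0.64), IFIH1 (0.62), GBP5 (0.61), USP18 (0.60), GBP1 (0.60), LAP3 (0.59), IRF1 (0.59), SP110 (0.59), PLSCR1 (0.58) and ISG15 (0.57). CMPK2, a nucleotide kinase, is the head-to-head neighbour of RSAD2 on the other strand. What part their overlap has in this r was not tested. EPCAM had an r of -0.07 and TTR of -0.25. The 25% of 3CK epithelial barcodes lowest in TTR had a median sum of 15.9 per 10000, and the 25% highest in TTR one of 8.78. The 25% lowest in CXCL10, a chemokine induced by IFN-γ, had 8.71 and the 25% highest 21.6. Barcodes with a UMI of the cell cycle genes MKI67 or TOP2A had 16.1 and the others 13.7. The antiviral sum was thus higher in barcodes with more CXCL10 and with less TTR, and it was present in every one of these groups. The groups also differed in median depth. It was 82906 and 97412 UMIs in the lowest and highest TTR groups, and 81238 and 108355 in those of CXCL10. With and without a MKI67 or TOP2A UMI it was 108376 and 91348 UMIs. The part of depth in these sums was not tested.

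OASL was concentrated in fewer cells than MX2, a gene of like mean level. After thinning 3CK epithelial barcodes to 10000 UMIs, with means of 0.421 and 0.425 UMIs, the highest 10% of cells held 85.7% of OASL and 60.3% of MX2 UMIs. This share depends on the mean level. Among genes of higher mean it was 59.0% for RSAD2, 56.5% for IFIT2, 49.0% for IFIT1 and 28.4% for IFIT3. The Fano factor of OASL, the variance over the mean, was 8.87, followed by IFIT2 at 6.91 and IFIT1 at 5.73. The lowest were OAS2 at 1.40 and OAS3 at 1.87.

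IFNL1, which encodes a type III interferon, had 3 UMIs in 3 CNT barcodes and 93 UMIs in 19 3CK barcodes (1.36%, 0.820 to 2.11), of which 16 were epithelial, 0 mesenchymal and 3 in no class. The highest barcodes held 23 and 22 of the 93. Of the other interferon genes listed, IFNB1 had 0 and 1 UMI, IFNL2 0 and 2, IFNE 2 and 2, IFNK 1 and 1, IFNA2 1 and 1, and IFNG 3 and 2, while IFNA1 and IFNL3 had none. IFNL1 was thus the 1 listed interferon gene above the floor of 3 UMIs.

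The 17 3CK barcodes with an IFNL1 UMI and at least 10000 UMIs were set beside the 978 without one, a split chosen after the data were seen. Their median depths were 107393 and 90342.5 UMIs. In pooled sums OASL stood at 549 CPM against 28.0 CPM (19.6-fold), and 15 of the 17 barcodes were above the median of the others, which was 0. IFIT2 stood at 947 against 162 CPM (5.83-fold), IFIT1 at 757 against 166 CPM (4.55-fold) and RSAD2 at 290 against 80.9 CPM (3.58-fold). IFIT3 was 2.14-fold, OAS2 1.96-fold, OAS3 1.15-fold and OAS1 1.14-fold higher in these sums, and the log2 intervals of MX1 (-0.25 to 0.06) and MX2 (-0.65 to 0.12) included 0. Barcode by barcode, 14 of the 17 were above the median of the others for IFIT2 and OAS1, 13 for IFIT1, IFIT3 and OAS2, 12 for OAS3, 10 for RSAD2 and 7 for MX1 and MX2. The large RSAD2 fold thus came from part of the barcodes, whose median was 64.1 CPM against 33.6 CPM. CXCL10 stood at 1689 against 1931 CPM. No IFNL1 barcode of 3CK was mesenchymal, whereas the 978 include that class. Within the epithelial class, 14 such barcodes had OASL at 457 CPM, against 31.1 CPM in the other 716. There IFIT2 stood at 943 against 175 CPM, IFIT1 at 619 against 173 CPM and RSAD2 at 281 against 85.7 CPM. MX1 stood at 201 against 233 CPM.

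The folds of OASL, IFIT2 and IFIT1 were larger in the 5 barcodes with at least 5 IFNL1 UMIs. They held 582 OASL UMIs of 506853 (1148 CPM), IFIT2 at 2265 CPM and IFIT1 at 1754 CPM. MX1 was at 67.1 CPM (34 UMIs), MX2 at 13.8 CPM (7 UMIs) and CXCL10 at 260 CPM, all under the 207, 38.8 and 1931 CPM of barcodes without IFNL1. In the 12 barcodes with 1 to 4 IFNL1 UMIs, OASL was at 315 CPM, IFIT2 at 433 CPM and MX1 at 243 CPM. Because these groups are few cells of 1 culture, the values describe those cells only. Leaving out every barcode with an IFNL1 UMI left all 10 genes at least 2-fold higher in 3CK, with a median log2 ratio of 5.19 in all barcodes and 5.59 in the epithelial class. That removed 19 of 1398 3CK barcodes, so the median could change little. The part of IFNL1 in the levels of the other barcodes was not tested.

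**Figure D5:**
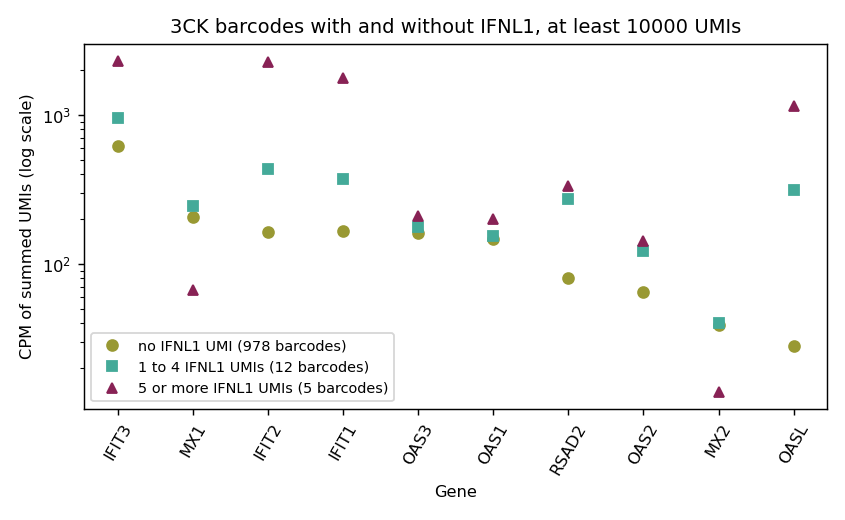
CPM (log axis) of each gene in 3CK barcodes with at least 10000 UMIs, split into those with no IFNL1 UMI (978), 1 to 4 (12) and 5 or more (5). OASL runs from 28.0 through 315 to 1148 CPM, while MX1 is at 207, 243 and 67.1 CPM.

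The rest of the pathway was described from lists, over all kept barcodes and against the same 6.96% of genes at least 2-fold higher. Of the 6 receptor chains 1 was at least 2-fold higher and none 2-fold lower. It was IFNGR1, which binds IFN-γ, at 58.9 CPM without and 209 CPM with the cytokines. IFNGR2 (46.7 and 59.8 CPM), the type I receptor chains IFNAR1 (34.6 and 37.2 CPM) and IFNAR2 (29.9 and 54.9 CPM) and the type III chains IFNLR1 (4.76 and 6.97 CPM) and IL10RB (23.1 and 39.0 CPM) were under 2-fold. Receptors for all 3 interferon types were therefore detected in both libraries.

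Of the 9 kinases and transcription factors, 7 were at least 2-fold higher. IRF1 went from 23.3 to 376 CPM, the largest log2 ratio of the list at 4.01, while TYK2 stood at 12.8 and 14.3 CPM. All 3 feedback inhibitors were at least 2-fold higher. USP18, which restrains type I receptor signalling, went from 5.27 to 56.6 CPM, SOCS1 from 15.9 to 76.8 CPM and SOCS3 from 23.7 to 50.3 CPM. Of the 8 nucleic acid sensors 7 were at least 2-fold higher: DDX58 (RIG-I) went from 19.0 to 138 CPM and ZBP1 from 3 to 661 UMIs. STING1, the adaptor of the DNA sensor cGAS, stood at 8.07 and 7.54 CPM.

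Of 5 relatives and partners of the 10 genes with at least 1 CPM, 2 were at least 2-fold higher and none 2-fold lower. CMPK2 went from 3.84 to 94.2 CPM and IFIT5 from 5.50 to 31.2 CPM. ABCE1, a factor of ribosome recycling (27.9 and 23.2 CPM), and PDE12, which degrades the OAS messenger (13.4 and 10.8 CPM), had log2 ratios of -0.26 and -0.31. IFIT1B, under 1 CPM, had 1 and 15 UMIs.

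Of 28 other antiviral interferon-stimulated genes, 27 were at least 2-fold higher, with a median log2 ratio of 3.21. ISG15, a ubiquitin-like modifier, went from 400 to 4818 CPM and IFI44L from 0.638 to 44.2 CPM, the largest ratio of the list. PNPT1, an RNA-degrading enzyme of mitochondria, stood at 52.2 and 63.0 CPM and was the 1 under 2-fold. All 11 genes listed as targets of the gamma-activated sequence were at least 2-fold higher, with a median of 6.33, from GBP2 (10.5 and 113 CPM) to CXCL10 (0.540 and 1918 CPM). The median of the 10 antiviral effectors, 5.19, lay between the medians of these 2 lists, and the lists are small and were chosen with these data known.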

How the data were processed

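The deposited matrices hold the authors' unnormalised UMI counts per gene and barcode. The submitters' processing notes name Cell Ranger 7.1.0 and GRCh38, and per the labels' protocols about 8300 cells were loaded per library with the 10x 3' v3.1 chemistry. Barcodes with at least 500 genes and at most 20% mitochondrial UMIs were kept, and Scrublet (scanpy 1.11.5) scores removed 52 CNT and 16 3CK barcodes as probable doublets. Counts were summed per library and class and scaled to CPM. Intervals are exact Poisson for CPM, from the exact binomial share of both counts for ratios, and Clopper-Pearson for shares. For a share of 0 the upper limit given is 3 counts of the total instead. A sum of 0 was set to 3 UMIs, and no ratio was formed where both sums were 3 or fewer. With 1 library per group no test across replicates was possible. The script was tested on simulated data. Correlations used log2(1 + UMIs per 10000). TMM factors came from edgeR 4.0.16.

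The members, gene lists, class rules and comparisons were chosen with earlier results of these data known. The genes named from the lists are the most abundant, the largest and the smallest ratio of each list, and every ligand and receptor. Some genes of the pathway and marker lists are not reported here. The IFNL1, TTR, CXCL10 and cell cycle splits and the high CNT barcodes were chosen after the data were seen. STING1 was matched by its ID, since the files list it under an older symbol. Gene bounds are from GENCODE 44, and the annotation the authors counted on is not given in the sources used here.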

Additional observations from a re-analysis of the deposited data

Results flagged for a closer look

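The 243 3CK barcodes removed by the filters, which enter no comparison, carried the 10 genes at a summed 1370 CPM (1328 to 1412), against 35.0 CPM (29.1 to 41.8) in the 770 removed CNT barcodes. They stand out because a signal appears in data that were set aside, above its level in the untreated library. The kept barcodes were at 1737 and 58.2 CPM.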

How the results depend on the processing

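All 10 genes (9 of 9 with a ratio under the hormone and granin rule) were at least 2-fold higher in 3CK in each class under every alternative run, except that 2 alternatives left 7 genes with a ratio under that rule, all of them at least 2-fold higher, and no result turned direction. Equal weight for every cell moved the median log2 ratio to 5.09 (epithelial), 4.21 (mesenchymal) and 6.14 (hormone and granin rule). The share of cells with a UMI of the 10 genes was 40.1% in CNT and 96.6% in 3CK without thinning, and 25.9% and 98.8% at 10000 UMIs, where the mean sums were 0.551 and 16.7. With at least 10 CPM required, 0 interferon ligands and 3 nucleic acid sensors were at least 2-fold higher. By construction, the shares and sums change with depth and the list counts with fewer genes tested. The cause of the other changes, those of single genes included, was not tested. TMM factors shifted the median of all genes by 0.09 on the log2 scale in all barcodes, 0.03 in the epithelial class, 0.18 in the mesenchymal class and -0.31 under the hormone and granin rule, and a total without mitochondrial, ribosomal and the 50 most abundant genes by -0.10, -0.12, -0.04 and -0.12. The alternative without IFNL1 barcodes was chosen after seeing the data. No paired analysis was possible because each group is 1 library and the labels carry no replicate numbers. Depth limits OASL and OAS2 in CNT, at 17 and 79 UMIs, and all values under the hormone and granin rule.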
